A study of Mus musculus with 4 samples.

Results

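Keratin genes, 9 in all, and Trp63, the gene of the transcription factor p63, were followed in tag counts from embryonic mouse limbs. The keratins were Krt5, Krt14 and Krt15 of basal epidermis, Krt1 and Krt10 of differentiating epidermis, Krt8 and Krt18 of simple epithelium, Krt17, and the hard keratin Krt84. Members were chosen by name, and the counts of each gene are the sum over all tags that the deposited table assigns to its Ensembl gene. The 10 genes are 10 of 23162 genes or gene clusters with at least 1 count, and all 10 passed the filter on low counts. The list was drawn up with limb differences in these libraries known, so adjusted p-values place each gene within the fit over all 13718 tested genes and are not independent support for it.

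The study compared forelimbs with hindlimbs at E14.5, taken from embryos of the CD1 mouse stock, both with no treatment or mutation named in the labels, and each limb type has 2 biological replicates. Total RNA of whole dissected limbs was profiled by DGE-SAGE, in which NlaIII cuts cDNA wherever it reads CATG. The 17 bases beside a cut, in principle the cut nearest the 3′ end of the transcript, serve as a countable tag. Tags from sites farther upstream were counted too, and how they arose was not tested. Whether limbs of several embryos were pooled, and whether forelimb and hindlimb samples share animals, is not in the labels, which name no batch or date either. P-values measure the spread between these replicates only, and edgeR draws the spread of each gene towards that of the other tested genes. A whole limb is a bulk sample: fewer epidermal cells and less RNA per epidermal cell cannot be told apart.

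Keratins are the intermediate filament proteins of epithelial cells and assemble as pairs of a type I and a type II chain. Basal cells of stratified epidermis pair Krt5 with Krt14, cells that leave the basal layer switch to Krt1 with Krt10, and simple epithelia pair Krt8 with Krt18. Hard keratins such as Krt84 belong to hair, nail and filiform papillae of the tongue, and p63 maintains the epidermal lineage and activates basal keratin genes. At mid-gestation the limb epidermis is stratifying beneath the transient periderm.

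The tags below are the most counted tags of these genes other than Krt17 and Krt18, with the second tags of Krt1, Krt10 and Krt84. The most counted Krt17 tag is printed further on, and no Krt18 tag is printed. Tags in this list have G and C in capitals because the limb ratio of a tag is set beside its base composition further on. Each is written 5′ to 3′ in the sense of the transcript and starts just after CATG. Positions are of GENCODE M21 on GRCm38.
Krt1 tag 1: CCCaGaGCaCtGGGttG
Krt1 tag 2: aCatttCaaaGaGGaCt
Krt10 tag 1: aGaaaCCaataCGaaCa
Krt10 tag 2: GCaaCtCaaGCCaGCGa
Krt5 tag 1: ttCtttGGtGaCCCaGa
Krt14 tag 1: CtGCtCaGGCttaGGaG
Krt15 tag 1: tttCtttttaCaaatGC
Krt8 tag 1: aGCattCataCGaaGaC
Krt84 tag 1: tGCCttGttCttGtGGt
Krt84 tag 2: aGCaCaGaCCCCtaaGa
Trp63 tag 1: Caataaaatttaaaaat

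Krt1 tag 1 (chr15:101845586-101845602, minus strand) lies at the last NlaIII site of the transcript, and Krt1 tag 2 (chr15:101845632-101845648, minus strand) at the second site from the 3′ end; both are in the 3′ UTR in exon 9 of 9. Krt10 tag 1 (chr11:99387279-99387295, minus strand) lies at the last site of its transcript, which is in coding exon 4 of 8, and Krt10 tag 2 (chr11:99388793-99388809, minus strand) is in coding exon 1. The leading tags of Krt5 (chr15:101707194-101707210, minus strand), Krt14 (chr11:100203283-100203299, minus strand) and Krt15 (chr11:100131761-100131777, minus strand) are at last sites in the 3′ UTR. Krt8 tag 1 (chr15:101997677-101997693, minus strand) is at the last site, in coding exon 8 of 9. Krt84 tag 1 (chr15:101525167-101525183, minus strand) and tag 2 (chr15:101525435-101525451, minus strand) are the last and second site, in the 3′ UTR in exon 9 of 9. Trp63 tag 1 (chr16:25892055-25892071, plus strand) is the last site, in the 3′ UTR in exon 12 of 12.

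The forelimb libraries held 4695786 and 1829647 counted tags (replicates 1 and 2) and the hindlimb libraries 5325279 and 5015295. Levels are in CPM, edgeR's counts scaled to a common library size with TMM, and a single count in forelimb replicate 2 stands for 0.621 CPM, against 0.224 to 0.256 CPM elsewhere. Counted tags held 40.6% and 40.2% G or C on average in the forelimb libraries, against 46.3% and 50.4% in the hindlimb libraries. All 6 defining keratinocyte markers (Krt5, Krt14, Trp63, Cdh1, Epcam and Perp) were counted in every library, with a summed level of 969 to 1117 CPM in forelimb and 1433 to 2056 CPM in hindlimb. Krt5, Krt14 and Trp63 are themselves among the genes followed here, so this sum is no separate measure of epidermal cells. Summed mesenchyme markers were 17272 to 24396 CPM in forelimb and 13904 to 14072 CPM in hindlimb, and muscle markers 2213 to 2732 and 958 to 1100 CPM. Calls in the hindlimb and forelimb direction were 1 and 1 of 6 keratinocyte, 0 and 1 of 6 mesenchyme, 0 and 3 of 7 muscle, 1 and 1 of 5 cartilage, 1 and 1 of 4 red cell, 2 and 1 of 5 endothelial and 0 and 1 of 3 macrophage markers. Over all tested genes, 9.58% were called higher in hindlimb and 7.08% higher in forelimb. Both keratinocyte calls were of genes followed here, Krt14 in the hindlimb and Trp63 in the forelimb direction. No nerve or melanocyte marker was called by edgeR or DESeq2, and 1 and 2 of them had an unadjusted p under 0.05. Of all tested genes, 16.8% had one in the hindlimb and 15.6% in the forelimb direction (edgeR). Of 5 Merkel cell markers with a count, only Sox2 had enough counts for the test, and Atoh1 had none. With the tag-sequence offset described further on, no marker on these lists was called. The part of the marker differences in the keratin values was not tested.

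Of the 10 genes, 2 were called higher in hindlimb (Krt14 and Krt1), 3 higher in forelimb (Krt84, Krt10 and Trp63) and 5 were not called (edgeR quasi-likelihood test, Benjamini-Hochberg adjusted p under 0.05). Over all tested genes, 9.58% were called higher in hindlimb and 7.08% higher in forelimb, 16.7% in all. The 2 limb types did not overlap in CPM for 8 of the 10 genes, 4 in each direction, beside 62.8% of all tested genes, 31.4% in each direction. All log2 fold changes take hindlimb relative to forelimb, and negative ones mark a higher forelimb level. The median over the 10 genes was −0.32, beside −0.029 over all tested genes. With 2 libraries against 2, an exact two-sided permutation test cannot go below p = 0.333 for a single gene.

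**Figure D1:**
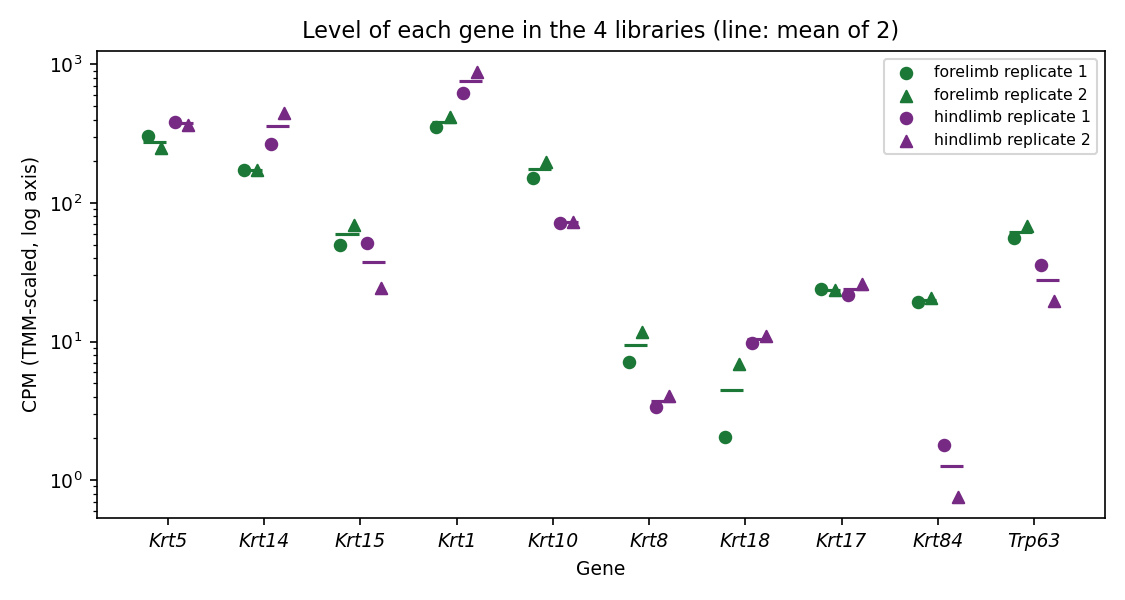
Level of each of the 10 genes in the 4 libraries, in TMM-scaled CPM on a log axis, with forelimb and hindlimb libraries in 2 colours, replicates as marker shapes and a line at the mean of 2. Krt84 shows the widest gap, with forelimb at 19.5 and 20.5 CPM and hindlimb at 1.79 and 0.761 CPM, and Krt17 shows none.

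Krt84, a type II hard keratin, gave the clearest limb difference. It had 76 and 33 counts in the forelimb libraries and 8 and 3 in the hindlimb libraries, or 19.5 and 20.5 CPM against 1.79 and 0.761 CPM. Both forelimb libraries lay far above both hindlimb libraries. The log2 fold change was −3.91 ± 0.65 (SE, n = 2 per limb type, adjusted p = 0.00131), and pooled counts scaled by library size were 15.1-fold higher in forelimb, with a 95% interval of 8.13 to 31.2 that covers counting error only. Tag 1 was counted 59 and 25 times in forelimb and 3 and 0 times in hindlimb. Tag 2 was counted 14 and 6 times in forelimb and 5 and 3 times in hindlimb. Both tags were counted more often in each forelimb library, although forelimb replicate 2 was the shallowest. Leaving out any 1 library kept the call, with log2 fold changes from −4.65 to −3.44.

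The basal keratins Krt5 and Krt14 are partners in 1 filament. Krt5 was at 305 and 251 CPM in forelimb and 382 and 368 CPM in hindlimb, from 404 to 1709 counts. Its hindlimb libraries lay above its forelimb libraries, but the log2 fold change of 0.43 ± 0.30 was not called (adjusted p = 0.349). Krt14 was at 174 and 173 CPM in forelimb and 268 and 446 CPM in hindlimb, from 279 to 1759 counts. Here the forelimb libraries were nearly equal and the hindlimb libraries were apart from each other. Krt14 rose in hindlimb with a log2 fold change of 1.04 ± 0.33 (adjusted p = 0.0385). Dropping forelimb replicate 1 (1.04, adjusted p = 0.207), forelimb replicate 2 (1.03, adjusted p = 0.210) or hindlimb replicate 2 (0.64, adjusted p = 0.278) ended that call. The count ratio of Krt14 to Krt5 was 0.570 and 0.691 in forelimb and 0.701 and 1.21 in hindlimb, so hindlimb replicate 1 was close to forelimb replicate 2.

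Krt15, a type I keratin of basal cells, was at 49.7 and 69.6 CPM in forelimb and 51.2 and 24.3 CPM in hindlimb, from 96 to 229 counts. The limb types overlapped, and the log2 fold change of −0.65 ± 0.40 was not called (adjusted p = 0.275). Without hindlimb replicate 1, which was the hindlimb library nearer to forelimb, the value was −1.29 (adjusted p = 0.0179).

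Trp63, which is upstream of the basal keratins, was at 56.3 and 67.7 CPM in forelimb (220 and 109 counts) and 35.8 and 19.8 CPM in hindlimb (160 and 78 counts). The limb types did not overlap, and the call was higher in forelimb, opposite to the call of Krt14 (log2 fold change −1.15 ± 0.38, adjusted p = 0.0472). It ended when forelimb replicate 1 (−1.28, adjusted p = 0.124), forelimb replicate 2 (−1.02, adjusted p = 0.219) or hindlimb replicate 2 (−0.77, adjusted p = 0.285) was dropped. Trp63 tag 1, with 1 G or C in 17 bases, held 60.3% of the counts of the gene. It is the last site in 4 of 8 coding transcripts, and a tag of 13 counts is the last site in 2 others. Tags near the 3′ end do not separate transcripts that start at the alternative promoters of Trp63, so the TA and ΔN forms were not told apart.

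The differentiating keratins Krt1 and Krt10, partners in suprabasal cells, were called in opposite directions. Krt1, type II, was at 353 and 416 CPM in forelimb and 624 and 882 CPM in hindlimb, from 669 to 3480 counts. Krt10, type I, was at 150.3 and 199 CPM in forelimb and 71.5 and 73.3 CPM in hindlimb, from 289 to 587 counts. In each case the limb types were apart. Krt1 rose in hindlimb by a log2 fold change of 0.97 ± 0.32 (adjusted p = 0.0445), and Krt10 was lower there, at −1.27 ± 0.32 (adjusted p = 0.0132). The Krt1 call ended on dropping forelimb replicate 1 (0.86, adjusted p = 0.274), forelimb replicate 2 (1.08, adjusted p = 0.158) or hindlimb replicate 2 (0.72, adjusted p = 0.208), and the Krt10 call on dropping forelimb replicate 2 (−1.06, adjusted p = 0.161). The count ratio of Krt1 to Krt10 was 2.35 and 2.09 in forelimb and 8.73 and 12.04 in hindlimb.

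The simple keratins Krt8 and Krt18 were counted far less often, with 8 to 44 counts per library. Krt8 was at 7.17 and 11.8 CPM in forelimb and 3.35 and 4.06 CPM in hindlimb (28, 19, 15 and 16 counts). Krt18 was at 2.05 and 6.83 CPM in forelimb and 9.84 and 10.9 CPM in hindlimb (8, 11, 44 and 43 counts). The partners again lay in opposite directions without overlap, and neither was called (Krt8 −1.32 ± 0.72, adjusted p = 0.214; Krt18 1.35 ± 0.72, adjusted p = 0.205). The Krt18 value rested on single libraries and tags: dropping forelimb replicate 1 gave 0.60, dropping forelimb replicate 2 gave 2.31, and the value was 0.44 on tags of 1 gene only, and 6.83 on its most abundant tag alone, where it was called (adjusted p = 0.0241). That tag, with 0 counts in either forelimb library and 11 and 23 in the hindlimb libraries, and 1 other of the 8 Krt18 tags also match the pseudogene Gm5200, so their counts are uncertain.

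Krt17, a type I keratin of periderm, epidermal appendages and wounds, was level across the libraries, at 23.8 and 23.6 CPM in forelimb and 21.7 and 25.9 CPM in hindlimb (93, 38, 97 and 102 counts). The limb types overlapped (log2 fold change 0.0023 ± 0.39, adjusted p = 0.998). Krt14 and Krt17 are close paralogs, and a homologous site in each gives tags that share 14 of 17 bases. The pair shows how the counting tells them apart, with the differing bases in capitals.
Krt14 homologous tag: aaagcatcCctggagAA
Krt17 homologous tag: aaagcatcTctggagGG

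Counted from 1 at the first base after CATG, the substitutions from Krt14 to Krt17 are C9T, A16G and A17G. The Krt14 tag had 72, 46, 32 and 16 counts in forelimb replicates 1 and 2 and hindlimb replicates 1 and 2, and the Krt17 tag, the leading one of that gene, had 70, 23, 46 and 54. A further tag of 48 counts assigned to Krt17 matches Krt14 and Krt42 too, and its source is uncertain.

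Summed over their genes, basal keratins were at 528 and 494 CPM in forelimb and 701 and 838 CPM in hindlimb. Differentiating keratins were at 503 and 614 CPM in forelimb and 696 and 956 CPM in hindlimb. Both sums were higher in hindlimb without overlap, by 0.59 and 0.56 on the log2 scale. The ratio of differentiating to basal keratins was 0.953 and 1.24 in forelimb and 0.992 and 1.14 in hindlimb, which overlap. Simple keratins summed to 9.22 and 18.6 CPM in forelimb and 13.2 and 15.0 CPM in hindlimb, with the hindlimb libraries inside the forelimb range.

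Within Krt1, single tags moved in opposite directions. Tag 1, with 11 G or C bases, had 238 and 46 counts in forelimb and 2025 and 3002 in hindlimb. It made up 17.3% (Wilson 95% interval 15.4 to 19.4) and 6.88% (5.19 to 9.05) of Krt1 counts in forelimb, and 72.5% (70.8 to 74.2) and 86.3% (85.1 to 87.4) in hindlimb. Tag 2, just upstream and with 6 G or C bases, had 851 and 456 counts in forelimb and 446 and 301 in hindlimb. It fell from 61.8% and 68.2% of Krt1 counts to 15.97% and 8.65%. The leading tag of Krt1 therefore differed between limb types, and the sum over tags hides this. Krt1 tag 5, also with 11 G or C bases, did not move with tag 1. It was at 9.22 and 21.7 CPM in forelimb and 8.27 and 8.11 CPM in hindlimb.

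**Figure D2:**
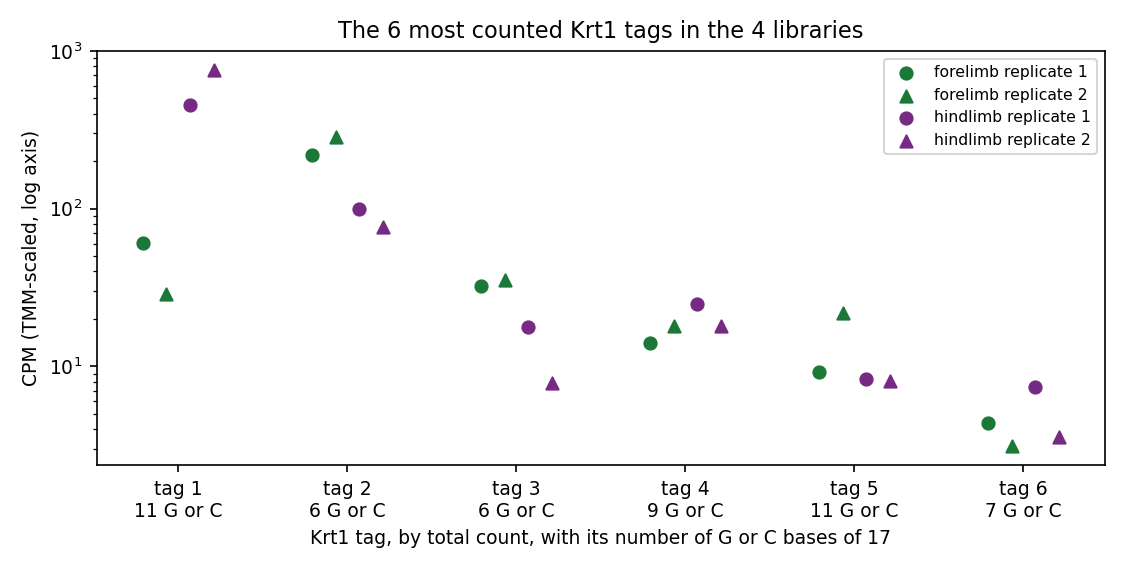
CPM on a log axis of the 6 most counted Krt1 tags in the 4 libraries, each with its number of G or C bases. Tag 1, with 11 G or C bases, is higher in both hindlimb libraries, and tag 2, with 6, is higher in both forelimb libraries. Tag 5, also with 11, is higher in both forelimb libraries, at 9.22 and 21.7 CPM against 8.27 and 8.11 CPM.

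Differing tag usage was tested by edgeR's diffSpliceDGE on tags with at least 10 counts over the 4 libraries. Of 9 members with enough tags, 2 were called, Krt1 (adjusted p = 0.00892) and Krt14 (adjusted p = 0.0255), beside 3.87% of all 11818 genes tested. Neither was called without forelimb replicate 1 (adjusted p = 0.205 and 0.305) or forelimb replicate 2 (0.473 and 0.568), and Krt14 was not called without hindlimb replicate 2 (0.424). The Krt14 leading tag, with 10 G or C bases, had 459 and 149 counts in forelimb and 912 and 1503 in hindlimb. The homologous tag of Krt14 printed above, with 8, ran the other way. Krt10 showed the same opposition with its order turned, without a call (adjusted p = 0.158, or 0.0335 without hindlimb replicate 1). Its leading tag, with 6 G or C bases, had 535 and 291 counts in forelimb and 220 and 166 in hindlimb, while its second tag, with 10, had 39 and 12 in forelimb and 53 and 85 in hindlimb.

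Tags of all genes showed the same order by base composition. Among tags with at least 10 counts, 22.8% of those with at most 6 G or C bases were higher in hindlimb, 47.6% of those with 7 to 9, and 81.5% of those with at least 10. Of the tags of the 10 genes, 1 of 9, 11 of 26 and 15 of 21 were higher in hindlimb in these classes. Their median log2 ratios were −1.51, −0.27 and 0.81, beside −0.96, −0.091 and 1.32 for all tags. Weighted by counts, tags of Krt14 and Krt1, called higher in hindlimb, held 58.4% and 55.4% G or C, and those of Krt17 and Krt18, not called, 56.1% and 55.8%. Krt10 and Trp63, called higher in forelimb, had 39.9% and 19.1%, and Krt84 stood between them at 48.4%.

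**Figure D3:**
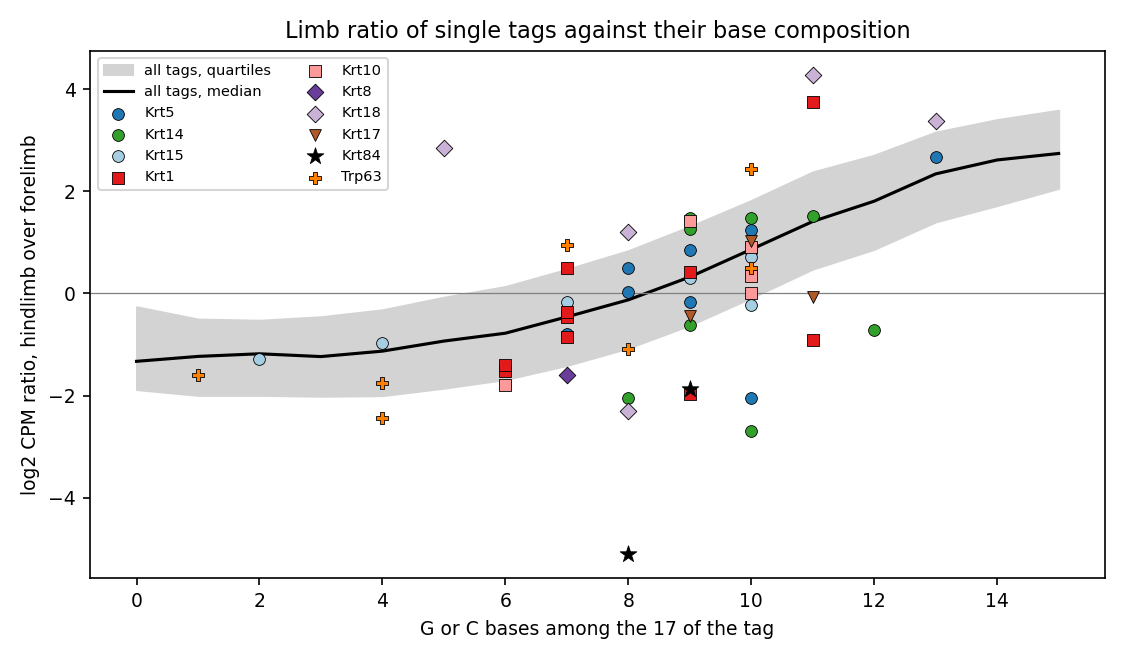
Log2 CPM ratio of hindlimb over forelimb for single tags against the number of G or C bases among 17, with the median (line) and quartiles (shaded) of all tags with at least 10 counts and the tags of the 10 genes as points. Most points follow the rising line, and the leading Krt84 tag at 8 G or C bases lies at −5.10 where the median is −0.12.

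Krt1 tag 1 had a log2 ratio of 3.75, where the median of tags with 11 G or C bases was 1.41, and Krt1 tag 2 had −1.51, where that of tags with 6 was −0.78. The leading tags of Krt14 (1.47 beside 0.86), Trp63 (−1.60 beside −1.23) and Krt15 (−0.98 beside −1.13) lay nearer to the median of their own class. Krt10 tag 1 had −1.80 beside −0.78, and Krt8 tag 1 −1.60 beside −0.46. The leading Krt5 tag had 0.49 beside −0.12. Krt84 tag 1 at −5.10 beside −0.12 and Krt84 tag 2 at −1.87 beside 0.32 lay farthest below their class among the tags printed here. Some tags not printed lay farther below their class than Krt84 tag 2. Examples are Krt1 tag 5 at −0.92 beside 1.41 and Krt14 tag 6 at −0.71 beside 1.81.

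The counts were refitted with a tag-sequence offset, a per-library term for base and position in the tag, learned from how tags within 1 gene differ from each other. It was tried as an alternative because base composition differed between these libraries. With it, 0.146% of all tested genes were called, 11 higher in hindlimb and 9 in forelimb, and none of the 10 keratin and p63 genes was. Unadjusted p-values fell under 0.05 for 2 of the 10, Krt84 and Krt15, and for 9.09% of all tested genes. The values of Krt14 and Krt1 turned to −0.38 and −0.43 (adjusted p = 0.629 and 0.564), Krt10 moved to 0.041 (adjusted p = 0.975) and Trp63 shrank to −0.54 (adjusted p = 0.595). An offset for GC content alone left Trp63 at −0.086 (adjusted p = 0.896), Krt14 at 0.089 and Krt1 at 0.27, none of them called, and Krt10 at −0.92 and Krt84 at −4.05, both called (adjusted p = 0.0424 and 0.00322). Krt84 stayed at −3.17 ± 0.60, with an adjusted p of 0.0535, just above the threshold. Krt5 and Krt8 also turned, to −0.29 and 0.10, and Krt18 stayed at 1.11.

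**Figure D4:**
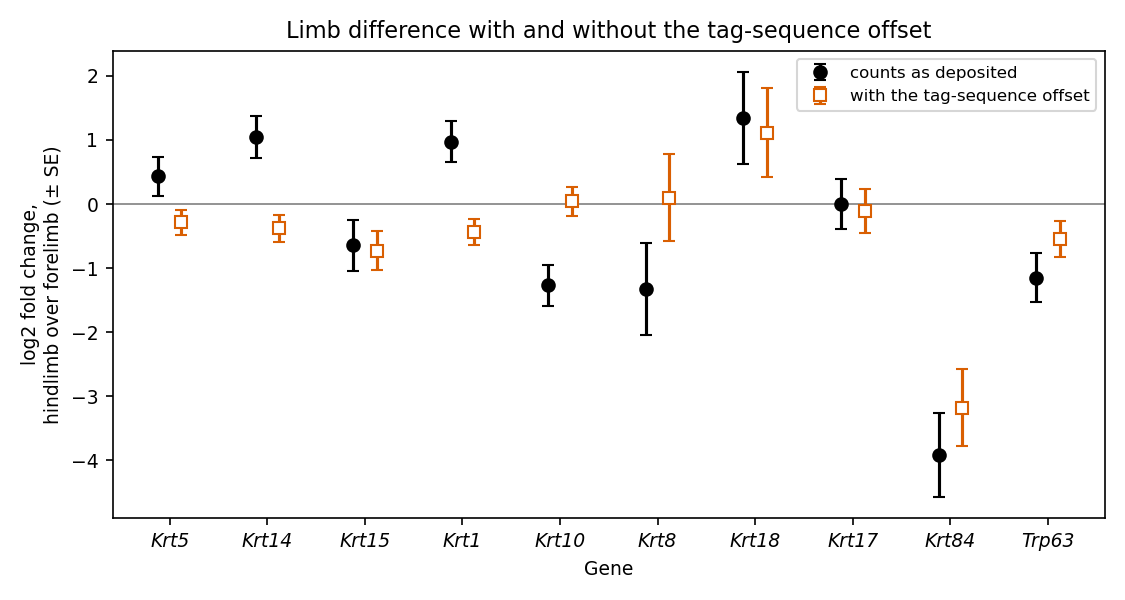
Log2 fold change of hindlimb over forelimb with its SE for each of the 10 genes, from the counts as deposited (filled circles) and with the tag-sequence offset (open squares). Krt14, Krt1 and Krt10 move to between −0.43 and 0.041 with the offset, and Krt84 stays at −3.17.

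With the offset, summed basal keratins were 0.36 lower in hindlimb on the log2 scale, at 713 and 789 CPM in forelimb and 576 and 593 in hindlimb. Summed differentiating keratins were 0.35 lower, at 584 and 751 against 527 and 524 CPM. Summed simple keratins, from few counts, were 0.53 higher in hindlimb, at 7.20 and 15.1 CPM in forelimb and 15.4 and 16.9 CPM in hindlimb. The limb types nearly met, at 15.1 CPM in forelimb replicate 2 and 15.4 CPM in hindlimb replicate 1. A single count in forelimb replicate 2 stands for 0.621 CPM without the offset. The ratio of Krt1 to Krt10 came to 4.63 and 5.28 in forelimb and 4.04 and 3.19 in hindlimb, where the deposited counts had it higher in hindlimb. Tag usage under the same offset, tested with limma's diffSplice, called none of the 9 members (Krt1 adjusted p = 0.402, Krt14 adjusted p = 0.689). Without an offset limma called 3 of the 9, beside 2084 of 11818 genes. With the offset the number of calls over all genes also fell steeply, as given further on. At an unadjusted p under 0.05 limma with the offset had Krt1 alone. The offset was fitted to tag differences within genes of these same libraries, the members' tags included. It therefore takes out part of what this test measures, and the lost calls do not decide whether tag usage differs.

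Of 26 other keratin genes with a count, 8 were tested. None of these 8 was called higher in hindlimb and 2 were called higher in forelimb, beside 9.58% and 7.08% of all tested genes. DESeq2 gave the same counts for these 8 keratins. At an unadjusted p under 0.05 edgeR had 2 in each direction, beside 16.8% of all tested genes in the hindlimb and 15.6% in the forelimb direction. Krt36, a type I hard keratin, was at 17.2 and 7.46 CPM in forelimb and 2.24 and 0 CPM in hindlimb (67, 12, 10 and 0 counts), with a log2 fold change of −3.41 ± 0.95 (adjusted p = 0.0213). Its call ended on dropping forelimb replicate 1 (−2.66, adjusted p = 0.326) or hindlimb replicate 2 (−2.47, adjusted p = 0.0554). Krt77, a type II keratin of suprabasal and sweat duct cells, was at 48.9 and 25.5 CPM in forelimb and 9.17 and 11.7 CPM in hindlimb, with −1.86 ± 0.44 (adjusted p = 0.00904), and this call ended on dropping forelimb replicate 1 (−1.29, adjusted p = 0.159). With the tag-sequence offset neither was called, at −2.57 (adjusted p = 0.390) and −1.48 (adjusted p = 0.211). Krt84 and Krt36 were thus both lower in hindlimb, but Krt35, also a hard keratin, overlapped between limb types at 3.07 and 6.21 against 4.47 and 5.32 CPM (0.13, adjusted p = 0.935). Krt35 was called higher in hindlimb on its most abundant tag alone (4.21, adjusted p = 0.0492) and on its last site alone (4.16, adjusted p = 0.0495). Krt4 and Krt7, keratins of non-cornified and simple epithelia, were at 0.76 (adjusted p = 0.120, or 0.997 and 0.0276 without hindlimb replicate 1) and 1.21 (adjusted p = 0.128), and Krt19, Krt13 and Krt222 were not called either. Krt24 and Krt6a, each with at most 8 counts in a library, were not tested.

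Genes that work with keratins were read from lists drawn up with results of these libraries known. With the tag-sequence offset edgeR called no member of these lists, and 2 or 3 members of each had an unadjusted p under 0.05. Among all tested genes, 0.146% were called with that offset and 9.09% had an unadjusted p under 0.05. Of 21 tested targets of p63 and regulators of epidermis, 2 rose in hindlimb, 2 were higher in forelimb and 17 were not called, with a median of 0.11. Beside these counts, 9.58% of all tested genes were called higher in hindlimb and 7.08% higher in forelimb. The Notch ligand Jag2 rose by a log2 fold change of 1.99 (adjusted p = 0.00389) and the cell cycle inhibitor Cdkn1a by 1.57 (adjusted p = 0.0431). The chromatin organiser Satb1 (−1.53, adjusted p = 0.0269) and the transcription factor Grhl1 (−1.36, adjusted p = 0.0408) were lower in hindlimb. With the offset Jag2, Cdkn1a and Grhl1 turned, to −0.15, −0.14 and 0.58, and Satb1 came to −0.58. Leaving out 1 library ended each of these calls in at least 1 case: Jag2 without forelimb replicate 1 (1.67), Satb1 without forelimb replicate 1 (−1.22) or hindlimb replicate 2 (−1.003), Cdkn1a whichever library was left out (1.46 to 1.72), and Grhl1 except where it was hindlimb replicate 1 (−1.54 to −1.18 over all 4).

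Of 17 tested proteins that anchor keratin filaments in desmosomes and hemidesmosomes, 1 rose in hindlimb, 3 were higher in forelimb and 13 were not called, with a median of −0.38. The shares of all tested genes called in these directions were 9.58% and 7.08%. Jup, plakoglobin, went from 38.2 and 34.2 CPM in forelimb to 143 and 289 CPM in hindlimb (2.57, adjusted p = 0.000602). The desmosomal cadherins Dsg2 (−2.54), Dsg1a (−1.59) and Dsc2 (−1.54) were lower in hindlimb. Jup tags held 73.5% G or C, beside 5.51%, 36.6% and 35.4% in the cadherins, and with the offset Jup came to 0.23, Dsg2 to −1.46, Dsg1a to −0.69 and Dsc2 to −0.35. The Dsg2 call was lost without hindlimb replicate 2 (−1.69), and those of Dsg1a (−1.22) and Dsc2 (−1.04) without forelimb replicate 1.

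Among basal lamina genes, the Lutheran adhesion receptor Bcam rose in hindlimb (1.51). Of 11 tested genes of differentiation and the cornified envelope, Krtdap, a peptide of differentiating keratinocytes, rose (1.32) and the calmodulin-like Calml3 was higher in forelimb (−3.81), with 9 not called and a median of 0.43. Of all tested genes, 16.7% were called in either direction. Calml3 had 33 and 26 counts in forelimb and 4 and 3 in hindlimb, and stayed at −3.30 with the offset (adjusted p = 0.210); Krtdap turned to −0.24 and Bcam to −0.71. Bcam (1.25), Krtdap (0.89) and Calml3 (−3.31) were not called without forelimb replicate 2, nor was Krtdap without hindlimb replicate 2 (0.65). Loricrin, by the symbol Lor, had at most 6 counts in a library.

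None of 14 tested epithelial identity genes was called; the protease inhibitor Spint2 was at 0.87 and the tight junction claudin Cldn4 at 0.36. DESeq2 called none of them, and at an unadjusted p under 0.05 edgeR had 4, all higher in hindlimb, beside 16.8% of all tested genes in that direction. Their sum was 278 and 261 CPM in forelimb and 307 and 422 CPM in hindlimb. Of 14 tested genes of ridge, dorsal ectoderm, nail and hair placode, Msx1 rose (1.19) and Krt84, which is on this list too, was higher in forelimb. Of 8 other intermediate filament genes tested, the lamin Lmnb2 rose (1.23) and 7 were not called. Among all tested genes, 9.58% were called higher in hindlimb and 7.08% higher in forelimb. With the offset Lmnb2 turned to −0.39 and Msx1 came to 0.19. Without forelimb replicate 1 or 2 neither was called (Lmnb2 1.49 and 1.01, Msx1 1.08 and 1.30), and Lmnb2 was not called without hindlimb replicate 2 (0.96).

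Among the 94 genes of these lists with a mean of at least 5 CPM, those nearest to 3 members in profile over the 4 libraries were named by the mean absolute difference of centred log2 CPM. Spint2 and Lama5 were nearest to Krt14, at 0.080 and 0.093. Grhl1 and the homeobox gene Msx2 were nearest to Krt10, at 0.060 and 0.066. The receptor Fgfr2 and the lamin Lmnb1 were nearest to Trp63, at 0.170 and 0.175. The 4 points of each profile share depth and base composition of the libraries, so these distances are a description.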

How the data were processed

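The authors deposited raw tag counts, whole numbers with no normalization, in 1 table of 733961 tags of 17 bases with a UniGene cluster and Ensembl gene for each tag where assigned, from 4 libraries of E14.5 CD1 mouse limbs. Per the submitters' processing notes, Bowtie and build mm9 were used; neither a version nor settings are named in what was used here. Counts were summed per Ensembl gene, or per cluster where no gene was given. Tags with no gene and no cluster made up 14.8% to 18.7% of each library's counts and were left out throughout. Samples were grouped by the limb named in their labels.

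Limb types were compared with edgeR 4.0.16 in R 4.3.3 (glmQLFit, glmQLFTest, TMM, filterByExpr, Benjamini-Hochberg at 0.05, limb type as the only factor, 2 residual degrees of freedom). The SE is the log2 fold change over the square root of F. Tag usage was tested with diffSpliceDGE. DESeq2 1.42.0, library totals, no filter, leaving out each library, the replicate number as a block, offsets for GC (lowess, span 0.3) and for tag sequence (fitted on 61466 tags of 11818 genes), and subsets of tags were alternatives; limma 3.58.1 ran diffSplice with tag-specific offsets. The main edgeR and tag usage fits were also run on simulated counts. These held no difference in base composition between libraries, and the offset fits were not included.

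Tags were matched to the sense strand of GENCODE M21 transcripts next to each CATG. Among tags that match 1 gene and have an Ensembl gene in the table, 98.0% of counts were in tags where both name the same gene. Tags to which the table gives no gene are not part of this share. The files use mm9, so positions are of this match on GRCm38.

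The members and all lists were chosen with earlier results of these data known. Named by rule were the 10 members; other keratins with a mean of at least 1 CPM, at most 12; up to 4 called genes of each list by smallest p, or the 2 most abundant where none was called; and the 2 genes nearest in profile to Krt14, Krt10 and Trp63. Tags were shown from those with at least 5% of the counts of a gene and at least 10 counts; the homologous tags of Krt14 and Krt17 and any gene named outside it were picked once their values were known. A result of the basal lamina list is not reported here. Intervals (Wilson for shares, 95%) cover counting error only, since tags are PCR products without molecular identifiers.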

Additional observations from a re-analysis of the deposited data

Results flagged for a closer look

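Some tags match the M21 transcript of 1 gene only, yet the deposited table gives them no gene, so their counts entered no comparison. For Krt1 these were 3 tags with 237 counts (113 and 23 in forelimb, 44 and 57 in hindlimb), equal to 2.85% of the Krt1 counts used. For Krt5 they were 3 tags with 92 counts (7 and 9 in forelimb, 50 and 26 in hindlimb), equal to 1.93%. Smaller numbers were found for Krt15 (15 counts in 2 tags), Trp63 (14 counts in 2 tags) and Krt17 (10 counts in 1 tag). All are above the 3 counts that a count of 0 allows.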

How the results depend on the processing

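Krt84 kept its direction in 16 of 16 alternatives (−5.43 to −3.17) and its call in 15; Krt10 was called in 13, Krt14 in 9, Krt1 and Trp63 in 8. With 2 replicates per limb type, leaving out 1 library leaves 1 residual degree of freedom, and the lone library is assumed to vary like the others. Genes called higher in hindlimb went from 1314 to 583 to 1899 with 1 library left out, 391 with the GC offset, 11 with the tag-sequence offset and 10 with that offset and the replicate block. Genes called higher in forelimb went from 971 to 367 to 2001, 432, 9 and 8. Members called higher in hindlimb were 0 to 2 with 1 library left out, 1 with library totals, and 0 with the replicate block, the GC offset, or the tag-sequence offset with or without the block. Members higher in forelimb were 1 to 4 with 1 library left out, 0 with the tag-sequence offset and 1 with the block added.

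Genes with differing tag usage went from 457 to 2 to 1663 with 1 library left out, 752 at a minimum of 20 counts, 217 with the replicate block, 2084 with limma without offset and 23 with limma and the tag-sequence offset. Members among them were 0 to 3, and 1 with the block and 0 with the offset. No label says that a replicate number marks shared animals, and the differences between replicates correlated at −0.10 between limb types over 13718 genes, so whether the numbers pair the samples is not known. With the block, Krt14 (0.99, adjusted p = 0.0677) and Krt1 (0.95, adjusted p = 0.0857) were not called. Crossing the numbers, chosen after seeing the data, gave 1684 and 1486 genes higher in hindlimb and forelimb.

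With the tag-sequence offset these log2 values changed sign (with the block in brackets): Krt5 −0.29 (−0.29), Krt14 −0.38 (−0.39), Krt1 −0.43 (−0.42), Krt10 0.041 (0.037), Krt8 0.10 (0.081), Krt17 −0.11 (−0.11), Bcam −0.71 (−0.68), Cdkn1a −0.14 (−0.099), Cldn4 −0.38 (−0.41), Grhl1 0.58 (0.56), Jag2 −0.15 (−0.15), Krt13 −0.25 (−0.18), Krt35 −0.91 (−0.89), Krt7 −0.32 (−0.32), Krtdap −0.24 (−0.18), Lmnb2 −0.39 (−0.39) and Spint2 −0.30 (−0.30); Sox2 did with the block alone (0.14). Summed basal and differentiating keratins came to −0.36 and −0.35, and the ratios of Krt1 to Krt10 and Krt14 to Krt5 to −0.46 and −0.094. The GC offset turned Krt15 (0.021), Krt17 (−0.74), Bcam (−0.97), Krt13 (−0.15), Krt19 (−0.33), Krt35 (−0.96), Krtdap (−0.53) and Sox2 (0.40). Krt17, at 0.0023, also turned with DESeq2 (−0.0073), library totals (−0.041), no filter (−0.0092), the replicate block (−0.0064), the most abundant tag (−0.51) and the last site (−0.56). With 1 library left out, ranges across 0 were −0.12 to 0.11 for Krt17, −0.047 to 0.68 for Cldn4, −0.33 to 0.50 for Krt19, −0.34 to 0.66 for Krt35 and −0.96 to 0.44 for Sox2. On the most abundant tag alone, differentiating keratins came to 1.58, their ratio to basal keratins to 0.86 and Krt1 to Krt10 to 5.50. The causes were not tested. Krt8, Krt18 and Krt84 rest on under 50 counts per library, apart from Krt84 in forelimb replicate 1 (76 counts).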

Other observations

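Hoxc13, a homeobox gene known for its part in hair and nail keratin expression, had 12 and 7 counts in forelimb and 34 and 66 in hindlimb, or 3.07 and 4.35 against 7.60 and 16.7 CPM; it was chosen after its values were seen. Its log2 fold change of 1.74 ± 0.68 was not called (adjusted p = 0.0825) and was 0.24 with the tag-sequence offset. Krt84 and Krt36 had their higher counts in forelimb. Foxn1, another regulator of hair and nail keratin genes, had no count in any library.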
